A study of Rattus norvegicus and Ovis aries with 113 samples.

Results

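The prion protein family was described here through its 3 genes: PRNP, which encodes the cellular prion protein PrP, PRND, which encodes doppel, and SPRN, which encodes shadoo. They were found by their symbols, read without regard to case, as 3 of the 31304 genes in the sheep count table and 3 of the 38675 genes in the rat count table. Each symbol was found in both tables, and all 3 genes passed the low-count filter in every comparison below.

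PrP and doppel are folded glycoproteins held on the outer face of the cell membrane by a glycosylphosphatidylinositol (GPI) anchor, and shadoo is a short anchored protein that resembles the flexible middle part of PrP. PrP is abundant in neurons and binds copper, and its misfolded form is the agent of scrapie in sheep. Doppel is best known from the testis and from sperm, where its loss in mice leads to male sterility, and shadoo is known mainly from brain.

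The study asked which genes link the nervous and the reproductive systems of mammals. The sheep libraries came from 5 post-pubertal males, numbered 687, 688, 690, 694 and 699, each of which gave 10 dissected regions of the same brain hemisphere and 1 sperm sample. The rat libraries came from Sprague Dawley animals after puberty: 15 males gave whole brain and sperm from seminal fluid, and 14 females gave whole brain and ovary. No animal of either species was treated or carried an engineered allele, per the labels, and replicates within a group were separate animals. Rat brain was taken whole and sheep brain by region. The extraction kit, library kit and demultiplexing also differed, so species and preparation cannot be told apart.

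Library totals ran from 46.7 to 72.4 M counts (M, 1000000) in sheep brain, 13.7 to 65.1 M in sheep sperm, 38.2 to 119 M in rat brain, 50.5 to 60.3 M in ovary and 13.7 to 65.1 M in rat sperm. Levels are counts per 1000000 (CPM) after scaling by the trimmed mean of M values (TMM), and errors are standard deviations (SD) over animals. Where n = 50, the SD is over 10 regions of 5 sheep and mixes the spread of regions with that of animals. Entries with ribosomal RNA-like sequence took 22.4 to 85.2% of the counts of a sheep sperm library, the lowest share being in sheep 688. The neuron markers SNAP25, SYT1, RBFOX3, STMN2 and NEFL averaged 7.43 to 9.09 over the sheep regions as log2(CPM + 1), against 0.46 to 1.91 in the sheep sperm libraries. In the same sperm libraries the neutrophil list stood at 7.47 to 10.06, the squamous epithelium list at 6.99 to 9.42 and the list of late spermatid and sperm genes at 2.68 to 7.34. Sheep 688 had the highest neutrophil and squamous values and the lowest spermatid value, with sheep 694 close to it in the neutrophil list at 10.02. In rats the neuron list was 8.27 to 8.92 in brain, 0.75 to 1.31 in ovary and 0.015 to 0.94 in sperm, and the granulosa list was 5.14 to 7.35 in ovary. Brain libraries 1 and 4 held 86.9% and 83.1% rRNA-like counts. In bulk RNA, fewer cells of a type and less RNA per cell cannot be told apart.

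In the rat genome (build GRCr8) Prnp lies on chromosome 3 from 139639076 to 139654420 and Prnd follows it on the same strand from 139666383 to 139671647, with 11962 bases between them. Sprn lies apart, on chromosome 1 from 204373936 to 204378074 on the minus strand, 18 bases from the end of Mtg1, a mitochondrial GTPase gene on the plus strand. The lncRNA entry LOC134486157 lies inside Prnd, at 139667878 to 139669740, and the strand setting of the counting is not given in the sources used here. It held 22 counts over the 14 ovaries and 11 over the 15 sperm libraries, where Prnd held 824 and 1930.

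The 250 bases before the annotated starts of the 2 neighbouring genes are shown because their transcripts were distributed so differently between brain and reproductive samples. Both are on the plus strand, chr3:139638826-139639075 for Prnp and chr3:139666133-139666382 for Prnd, from RefSeq. Capitals mark matches on either strand to 3 motifs, none of which overlap each other. The GC box was searched as GGGCGG. The CCAAT box was searched by the letters of its name. The TATA-like run was searched as TATATA.
Prnp: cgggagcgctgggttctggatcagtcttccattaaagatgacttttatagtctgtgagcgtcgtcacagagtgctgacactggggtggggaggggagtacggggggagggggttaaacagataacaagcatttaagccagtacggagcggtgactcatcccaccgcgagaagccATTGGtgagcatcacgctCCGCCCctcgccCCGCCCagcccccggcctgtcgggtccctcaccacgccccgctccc
Prnd: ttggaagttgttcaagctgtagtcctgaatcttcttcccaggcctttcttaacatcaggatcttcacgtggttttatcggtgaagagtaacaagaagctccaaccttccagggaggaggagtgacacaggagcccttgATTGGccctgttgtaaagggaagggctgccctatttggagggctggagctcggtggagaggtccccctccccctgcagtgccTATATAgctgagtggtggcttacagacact

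The Prnp window held 2 GC boxes, 1 CCAAT box and no TATA-like run, with 61.6% G and C. The Prnd window held no GC box, 1 CCAAT box and 1 TATA-like run, with 52.4% G and C. Of 27457 RefSeq promoter windows of the same length, 32.4% held a GC box, 34.3% a CCAAT box and 5.44% the TATA-like run. Of the 3 motifs, the run found in the Prnd window was therefore the least common among promoters. These matches describe the letters of the windows and were not linked to the counts.

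PRNP was detected in all 50 sheep brain libraries, and its highest region mean was 1.72 times its lowest. Over the 50 brain libraries its level averaged 304 CPM ± 89.0 (SD over libraries, n = 50), from 165 to 535. The region means, each over 5 sheep, ran in order from motor cortex at 363 ± 122 (SD), frontal cortex at 352 ± 68.6, hippocampus at 344 ± 138, visual cortex at 337 ± 121 and entorhinal cortex at 304 ± 79.5. They continued with basal ganglia at 298 ± 46.9, pons at 297 ± 60.7, prefrontal cortex at 284 ± 69.4, cerebellum at 255 ± 21.6 and posterior parietal cortex at 211 ± 38.6. Of the 9 steps between neighbours in this order, 1 exceeded the larger SD of its pair, the step from cerebellum to posterior parietal cortex.

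The test for any difference in PRNP among the 10 regions gave an adjusted p of 0.0870 (edgeR's quasi-likelihood test with Benjamini-Hochberg adjustment over all genes, as for every adjusted p below unless another tool is named). That test called 76.7% of the 21147 genes tested. PRNP passed without sheep 699 (adjusted p = 0.0179 by edgeR), with plain library totals (0.0389 by edgeR) and in limma's voom with quality weights (adjusted p = 0.0126). Each region was then set against the mean of the other 9, with calls made where the adjusted p was below 0.05, in either direction.

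**Figure D1:**
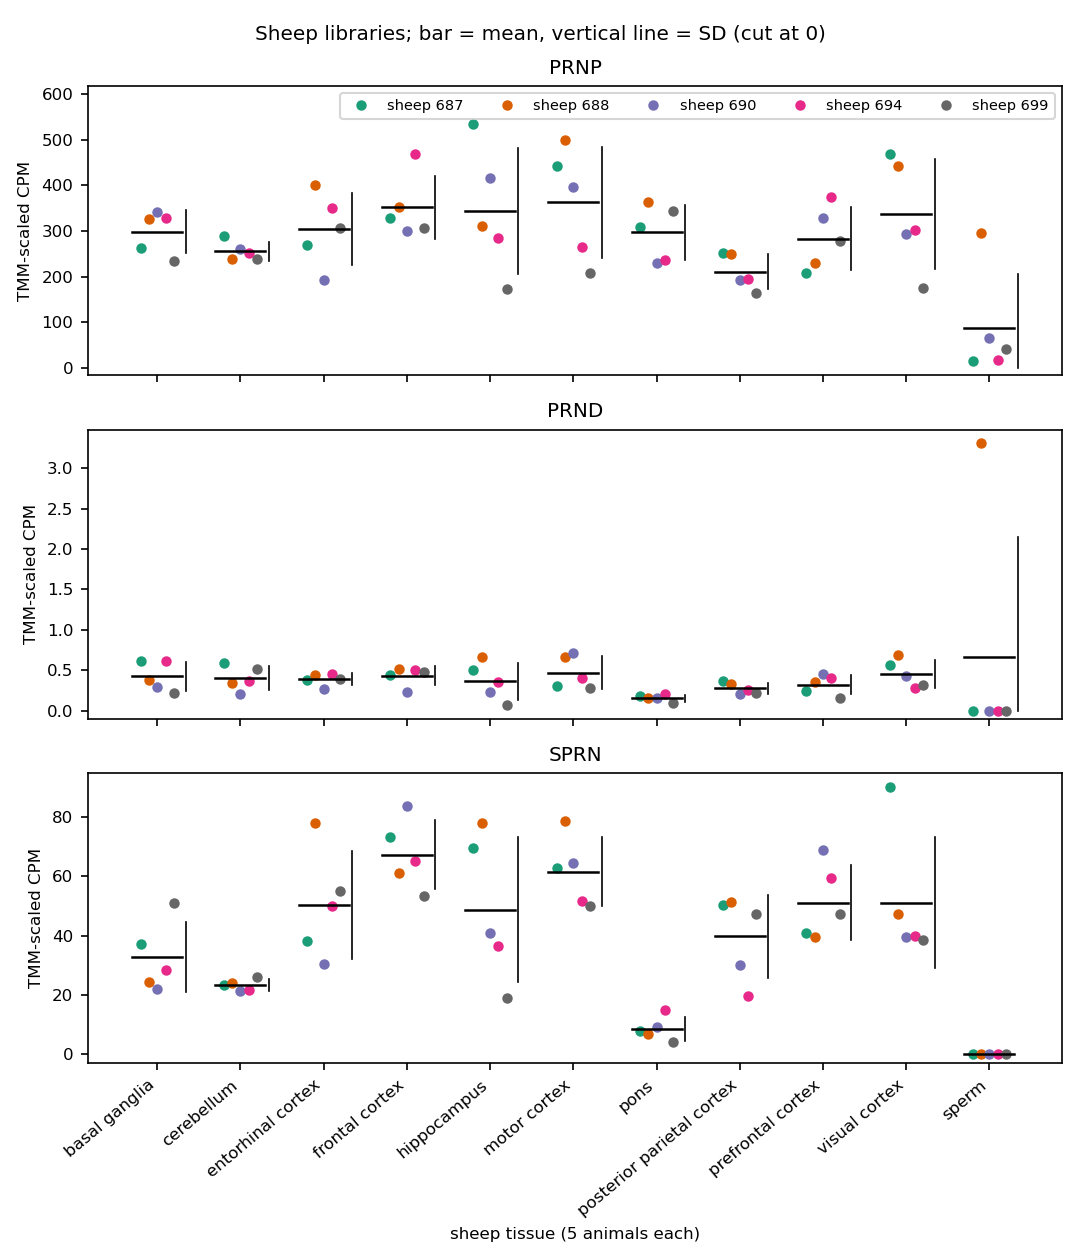
Level of PRNP, PRND and SPRN (TMM-scaled CPM, linear axis) in each sheep library, by tissue, with 5 animals in colour, a bar at the mean and a vertical line for the SD, cut at 0. SPRN in pons lies at 4.12 to 15.1 CPM, below every library of the other 9 regions, and sheep 688 stands above the other 4 animals in sperm for PRNP and PRND.

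PRNP passed that test in 1 region, posterior parietal cortex, a comparison in which 10.4% of genes were called. Its levels there were 252 CPM in sheep 687, 250 in 688, 192 in 690, 195 in 694 and 165 in 699, with a mean of 315 in the other 9 regions. The difference was -0.57 ± 0.18 (log2 ± SE; adjusted p = 0.0385 by edgeR), and the ranges overlapped. The call did not hold without sheep 687, 688, 690 or 694 in turn, where edgeR's adjusted p was 0.0658 to 0.159 and the difference stayed between -0.61 and -0.54.

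Within regions, PRNP was widely spread over the animals. In hippocampus sheep 687 had 535 CPM, 688 had 311, 690 had 416, 694 had 285 and 699 had 172. In visual cortex the same animals had 470, 443, 294, 302 and 175. Sheep 699 was the lowest of the 5 in both regions and had the lowest mean over its 10 regions, 243 CPM, against 295 to 341 in the other 4.

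On the log2(CPM + 1) scale, region accounted for 25.8% of the variance of PRNP over the 50 libraries and animal for 17.7%, with 56.5% remaining. The region share was low among genes, at the 9.79th percentile of 7529 genes of at least 10 CPM, for which the median share was 52.0%. The spread within regions, an SD of 0.396, was at the 86.6th percentile.

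SPRN had the largest share of variance between regions of the 3 members. The region accounted for 77.7% of its variance and the animal for 2.10%, and the region share was at the 91.2th percentile of the 7529 genes. Genes with a mean below 10 CPM in any region are not among these, so SPRN, at 8.59 CPM in pons, was not in the set it was ranked against. The test for any difference among regions gave an adjusted p of 1.03e-08 by edgeR. The region means were 67.4 CPM ± 11.6 in frontal cortex, 61.6 ± 11.6 in motor cortex, 51.2 ± 12.6 in prefrontal cortex, 51.1 ± 22.1 in visual cortex and 50.4 ± 18.3 in entorhinal cortex (SD, n = 5 each). Below these came hippocampus at 48.7 ± 24.4, posterior parietal cortex at 39.7 ± 14.1, basal ganglia at 32.7 ± 11.8, cerebellum at 23.4 ± 1.97 and pons at 8.59 ± 4.08. Of the 9 steps between neighbours, only that from cerebellum to pons exceeded the larger SD of the pair.

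Pons was the region with the least SPRN. Its levels were 7.98 CPM in sheep 687, 6.70 in 688, 9.06 in 690, 15.1 in 694 and 4.12 in 699, while the other 45 brain libraries ran from 19.0 to 90.2. With TMM scaling the ranges did not overlap, and pons was the lowest of the 10 regions in 5 of 5 sheep. With plain library totals sheep 694 had 20.9 CPM in pons and 20.4 in posterior parietal cortex. On that scale the ranges overlapped, and pons was the lowest in 4 of 5 sheep. The difference from the other 9 regions was -2.37 ± 0.27 (log2 ± SE; adjusted p = 1.48e-09 by edgeR), in a comparison in which 48.3% of genes were called. It remained between -2.71 and -2.22 when each sheep was left out in turn.

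The neuron list was lowest in pons, at 7.43 ± 0.98 (SD, n = 5), with all 5 genes detected, a summed level of 431 to 3869 CPM and overlap with the 1062 to 3911 CPM of the other regions. The myelin genes MBP, MOG, MAG and MOBP of oligodendrocytes were highest in pons, at 10.55 ± 0.89 (SD, n = 5) against 6.90 to 8.62 in the other region means. All 4 were detected, and their summed level was 10106 to 47124 CPM in pons and 706 to 21674 CPM elsewhere. Over the 10 region means SPRN had r of 0.640 with the neuron list and -0.685 with the myelin genes, and over the 50 libraries 0.639 and -0.527, as a description over points that share libraries and depth. The part of these genes in the SPRN and PRND differences was not tested. PRNP in pons was 309, 363, 231, 237 and 345 CPM in the order of animals above, at a difference of 0.02 ± 0.17 (adjusted p = 0.949 by edgeR).

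The cerebellum held SPRN at 23.3, 24.2, 21.4, 21.7 and 26.2 CPM in the 5 sheep, the narrowest range of any region. It was lower than the other regions by a log2 difference of -0.81 ± 0.24 (adjusted p = 0.00336 by edgeR), in a comparison in which 60.7% of genes were called. The neuron list was highest in cerebellum, at 9.09 ± 0.0784 (SD, n = 5), and its part in this difference was not tested.

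At the upper end of SPRN were 2 cortical regions. Frontal cortex had 73.3, 61.1, 83.8, 65.1 and 53.5 CPM, a log2 difference of 0.88 ± 0.20 from the other regions (adjusted p = 0.00429 by edgeR), where 7.85% of genes were called. Motor cortex had 62.9, 78.8, 64.5, 51.8 and 49.9 CPM, at 0.75 ± 0.21 (adjusted p = 0.0304 by edgeR), where 3.55% of genes were called. The frontal call was lost without sheep 690 (0.75, adjusted p = 0.0838 by edgeR), and the motor call without 688, 690 or 694 (0.68 to 0.80, adjusted p from 0.0555 to 0.136 by edgeR).

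PRND was scarce in every sheep brain library. It held 6 to 48 counts per library, with a median of 25 and 1234 counts over the 50 libraries, so single values carry a large counting error. Its level averaged 0.370 CPM ± 0.162 (SD over libraries, n = 50), from 0.0762 to 0.715. The region means ran from motor cortex at 0.471 ± 0.204, visual cortex at 0.456 ± 0.170, frontal cortex at 0.434 ± 0.119, basal ganglia at 0.426 ± 0.182 and cerebellum at 0.401 ± 0.149 (SD, n = 5 each). They went on with entorhinal cortex at 0.389 ± 0.0730, hippocampus at 0.363 ± 0.227, prefrontal cortex at 0.324 ± 0.118, posterior parietal cortex at 0.278 ± 0.0702 and pons at 0.156 ± 0.0422. Only the last of the 9 steps exceeded the larger SD of its pair.

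Pons was the region in which PRND passed the test. Its levels there were 0.179 CPM in sheep 687, 0.153 in 688, 0.153 in 690, 0.202 in 694 and 0.0896 in 699, against 0.0762 to 0.715 elsewhere, so the ranges overlapped. The difference was -1.28 ± 0.32 (log2 ± SE; adjusted p = 0.000824 by edgeR), and pons was the lowest region in 4 of 5 sheep, hippocampus being lower in sheep 699. With plain library totals pons was the lowest in 3 of 5 sheep. PRND kept its call in pons under every alternative that was run. Its test for any difference among regions gave an adjusted p of 0.0244 by edgeR, which became 0.0502 to 0.116 without sheep 687, 688, 690 or 694 in turn.

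In the other 5 regions no member was called. The share of genes called was 27.6% in basal ganglia, 3.36% in entorhinal cortex, 11.0% in hippocampus, 6.31% in prefrontal cortex and 5.65% in visual cortex. The largest non-called differences of SPRN were 0.46 ± 0.21 in prefrontal cortex and 0.45 ± 0.21 in visual cortex (adjusted p = 0.216 and 0.239 by edgeR). Visual cortex contained the highest SPRN value of all, 90.2 CPM in sheep 687, while the other 4 sheep had 38.5 to 47.2.

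**Figure D2:**
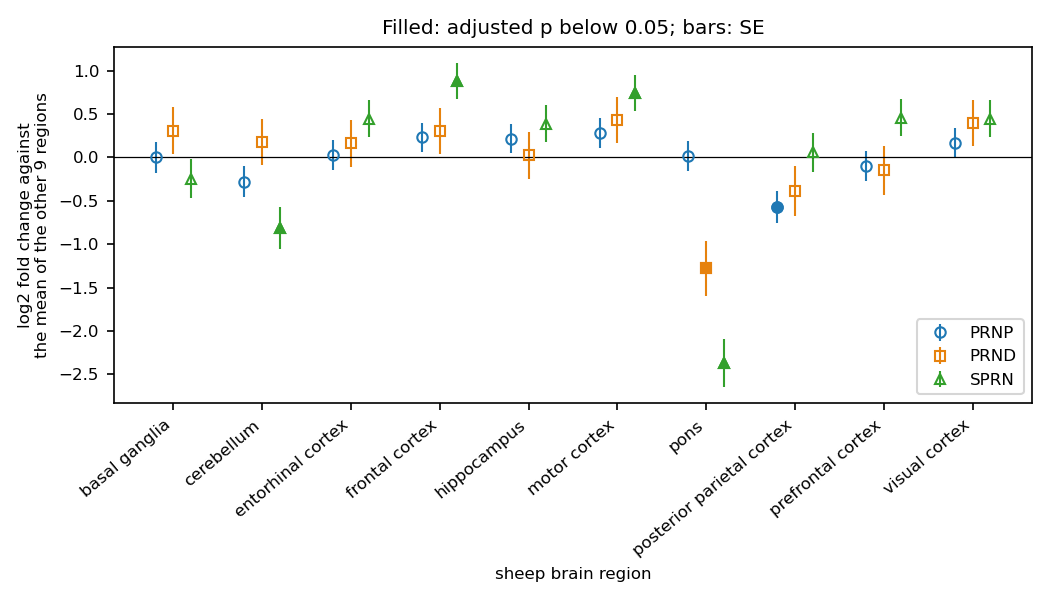
Log2 fold change of each member in each sheep brain region against the mean of the other 9 (linear axis of log2 values), with SE bars and filled symbols where the adjusted p was below 0.05. Pons holds the lowest values of SPRN (-2.37) and PRND (-1.28), while PRNP there is at 0.02.

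The genes most like each member over the 10 region means were ranked among 10162 genes by Pearson's r of log2(CPM + 1), a description over 10 points that share libraries and depth. For PRNP they included ARHGEF3 (0.892), TMEM192 (0.885), VPS50 (0.864) and ZNF215 (0.858). For SPRN they were SUB1 and SSTR2 (both 0.983), TMEM130 (0.982), CCDC177 (0.981) and OPCML (0.980). Over the 50 single libraries VPS50 was in rank 2 for PRNP (0.862) and SSTR2, a somatostatin receptor gene, in rank 2 for SPRN (0.939). The others ranked lower there. For PRNP, ARHGEF3 was in rank 6 (0.846), TMEM192 in rank 8 (0.834) and ZNF215 in rank 180 (0.673). For SPRN, TMEM130 was in rank 3 (0.936), OPCML in rank 15 (0.896), CCDC177 in rank 33 (0.872) and SUB1 in rank 269 (0.776). PRND stayed below 1 CPM in every region mean and was not searched.

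The genes of the wider PrP pathway were taken as 6 lists. These were proteins that bind PrP, a cleavage list of ADAM proteases and the beta-secretase BACE1, and enzymes that make and attach the GPI anchor. The others were zinc transporters of the LIV-1 ZIP family thought to share ancestry with the prion genes, copper-handling proteins and the genome neighbours of the 3 members. Cleavage of PrP by the listed proteases was not measured. In pons the call was made for 5440 genes in the higher and 4771 in the lower direction (48.3% of 21147), and 6 of 14 GPI anchor genes were called higher and 0 lower, with a median log2 difference of 0.22 where the median of all genes was 0.03. Among them were PIGU, a subunit of the enzyme that attaches the anchor (24.9 CPM against 15.6, 0.72 ± 0.10), and PIGK, its protease subunit (31.0 against 22.0, 0.54 ± 0.12). Of 5 cleavage genes 3 were higher and 0 lower, with BACE1, the beta-secretase, at 22.7 CPM against 12.7 (0.89 ± 0.18).

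Of the 11 binding partners in pons, 1 was higher and 3 were lower (median -0.01). CAV1, the caveolae protein, was higher at 19.0 CPM against 6.97 (1.55 ± 0.25). GRM5, a metabotropic glutamate receptor through which PrP signals, was lower at 33.5 against 91.1 (-1.33 ± 0.18). Copper handling had 3 of 8 higher and 1 lower, the latter MT3, a brain metallothionein, at 152 CPM against 344 (adjusted p = 0.000634 by edgeR). The ZIP list had 1 of 8 higher and 2 lower, and the 7 neighbours 1 and 1, with SMOX, spermine oxidase, at 41.8 CPM against 17.8 (1.28 ± 0.12).

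In cerebellum the lists differed in direction, in a comparison with 6150 genes called higher and 6689 lower (60.7% in all). Of the 11 binding partners 1 was higher and 6 were lower (median -0.35, all genes -0.04), with SORT1, a sorting receptor for PrP, at 99.9 CPM against 281 (-1.49 ± 0.20). Of the 14 GPI anchor genes 7 were higher and 1 was lower, with PIGT, which holds the attachment enzyme together, at 43.1 against 20.0 (1.09 ± 0.10). Plain library totals shifted the all-gene median there by 0.22. Under that scaling 3 binding partners were higher and 5 lower, and 11 GPI anchor genes were higher and 0 lower.

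In sheep sperm PRNP was lower than in brain in most animals, and one animal stood apart. Its levels were 15.8 CPM in sheep 687, 296 in 688, 65.5 in 690, 17.8 in 694 and 40.1 in 699, from 118, 3667, 199, 161 and 357 counts. With TMM scaling sheep 688 reached the brain range of 165 to 535, and the other 4 lay below it. With plain library totals sheep 688 had 74.6 CPM, below the lowest brain library at 172. On that scale no sperm library reached the brain range. The difference between sperm and the mean of the 10 regions was -1.78 ± 0.35 (log2 ± SE; adjusted p = 9.28e-06 by edgeR), in a comparison in which 83.4% of genes were called. Without sheep 688 it was -3.05 ± 0.32 (adjusted p = 4.39e-11 by edgeR), and with plain library totals -4.09. Sheep 688 also had the highest neutrophil and squamous lists, at 10.06 and 9.42. Sheep 694, with 17.8 CPM of PRNP, had nearly the same neutrophil level, 10.02, and the lowest squamous level, 6.99. The part of these lists in the PRNP level of sheep 688 was not tested.

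SPRN had no count in any of the 5 sheep sperm libraries, while every brain library held it. Taking 3 counts over the group as the limit that a count of 0 allows, 0.0735 CPM, SPRN was at least 591-fold lower in sperm than its brain mean of 43.5 CPM, and at least 3479-fold lower with plain library totals. The difference passed edgeR's test with an adjusted p of 9.61e-21.

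PRND in sheep sperm rested on 1 animal. Sheep 688 had 41 counts, or 3.31 CPM, and the other 4 had 0, with limits from 3 counts of 0.403 CPM in 687, 0.987 in 690, 0.333 in 694 and 0.337 in 699. The first 2 limits lie above the brain mean of 0.370 CPM, and the other 2 below it. The fitted difference was 1.12 ± 0.47 (adjusted p = 0.0244 by edgeR), and it was -7.39 without sheep 688, -1.17 with plain library totals (adjusted p = 0.0393 by edgeR) and 0.76 with the animal as a block (adjusted p = 0.141 by edgeR). No direction for sheep sperm as a group can be read from these values.

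The pathway lists in sheep sperm were read against a median of -0.42 over all genes, which fell by 2.42 with plain totals. The call was made for 8107 genes in the higher and 10118 in the lower direction (83.4% of 21859). Of the 11 binding partners 1 was higher and 10 were lower, with a median of -3.08; with plain totals 0 were higher and 10 lower. DPP6, a potassium channel partner, was at 1.07 CPM against 108 (-6.66 ± 0.47) and GRM5 at 1.55 against 85.3 (-5.74 ± 0.44). Of the 14 GPI anchor genes 3 were higher and 10 lower (median -1.34), which became 0 and 14 with plain totals. PIGS, another subunit of the attachment enzyme, was at 1.76 CPM against 35.9 (-4.46 ± 0.26).

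The cleavage list in sheep sperm had 2 of 5 higher and 2 lower (2 and 3 with plain totals). Those higher were ADAM8, a metalloprotease of white blood cells, at 157 CPM against 0.404 (8.65 ± 0.25), and ADAM9, a metalloprotease of many tissues, at 178 against 10.5 (4.17 ± 0.15). The neutrophil list (S100A8, S100A9, CSF3R, MPO and CXCR2) was high in the same libraries: all 5 genes were detected and summed to 13814 to 158537 CPM. Its part in these results was not tested.

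The ZIP list in sheep sperm had 2 of 8 higher and 5 lower (median -2.86; 1 and 7 with plain totals), with SLC39A8, a zinc and manganese importer, at 95.4 CPM against 5.13 (4.29 ± 0.27). Copper handling had 3 of 8 higher and 4 lower (median -1.44; 2 and 5 with plain totals): ATOX1, the copper chaperone, was at 194 CPM against 21.9 (3.16 ± 0.14), and MT3 at 0.240 against 325 (-10.06 ± 0.52). The 7 neighbours had 2 higher and 2 lower, with SYCE1, a synaptonemal complex protein of meiosis, at 16.1 CPM in sperm (7.38 ± 0.41).

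In rats, Prnp was highest in brain, intermediate in ovary and lowest in sperm. It ran from 619 to 810 CPM in female brain (median 759, 740 ± 64.3 SD, n = 14) and from 612 to 778 in male brain (median 719, 704 ± 54.8 SD, n = 15). Ovary had 206 to 338 CPM (median 259, 265 ± 42.7 SD, n = 14) and sperm 19.3 to 63.1 (median 41.5, 39.96 ± 12.3 SD, n = 15). Brain, ovary and sperm did not overlap, and the 2 sexes differed in brain by less than their spread.

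Sperm was below male brain by -4.10 ± 0.14 in Prnp (log2 ± SE; adjusted p = 9.21e-22 by edgeR), where 77.0% of genes were called. Ovary was below female brain by -1.48 ± 0.08 (adjusted p = 1.14e-17 by edgeR), where 88.6% were called, and above sperm by 2.76 ± 0.14 (adjusted p = 5.89e-17 by edgeR), where 71.3% were called. These comparisons share the ovary and sperm libraries.

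**Figure D3:**
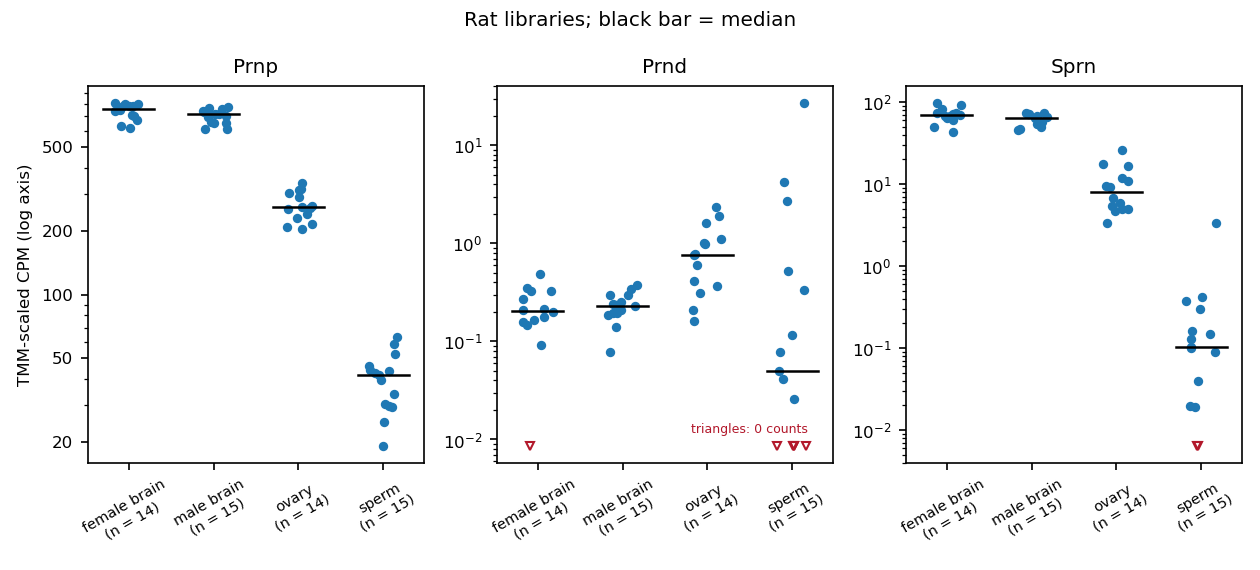
Level of Prnp, Prnd and Sprn (TMM-scaled CPM, log axis) in each of the 58 rat libraries by tissue, with a bar at the median and open triangles for libraries with 0 counts. Prnp and Sprn step down from brain to ovary to sperm, while Prnd in sperm spreads from 0 to 26.9 CPM.

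Sprn followed the same order with larger steps. It ran from 43.7 to 97.0 CPM in female brain (median 69.2, 70.0 ± 14.5 SD, n = 14), from 46.0 to 73.7 in male brain (median 63.2, 61.3 ± 9.52 SD, n = 15) and from 3.32 to 25.7 in ovary (median 7.98, 9.81 ± 6.36 SD, n = 14). In sperm it ran from 0 to 3.32 (median 0.103, n = 15), with libraries 12 and 17 at 0 counts. The ovary and brain ranges did not overlap, at a difference of -2.83 ± 0.25 (adjusted p = 6.61e-12 by edgeR).

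Sperm was below male brain in Sprn by -7.45 ± 0.66 (adjusted p = 8.98e-12 by edgeR). Its highest library was 16, with 115 counts and 3.32 CPM; the next was library 7 at 0.421. Libraries 7, 16 and 17 held 358 to 663 genes with 1 to 5 counts, against 3532 to 6339 in the other 12, and without these 3 the difference was -8.93. Ovary was above sperm by 4.76 ± 0.73 (adjusted p = 1.10e-06 by edgeR).

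Prnd had the opposite order in ovary and brain. It was at 0.161 to 2.36 CPM in ovary (median 0.766, 0.899 ± 0.664 SD, n = 14), with rats 24, 1 and 29 highest at 2.36, 1.90 and 1.63. Female brain had 0 to 0.486 CPM (median 0.205, n = 14) and male brain 0.0786 to 0.379 (median 0.228, 0.232 ± 0.0753 SD, n = 15). The female value of 0 was library 1, in which 3 counts amount to 0.366 CPM. Ovary was above female brain by 1.94 ± 0.36 (log2 ± SE; adjusted p = 9.41e-06 by edgeR), although the ranges overlapped, and the call held under all the alternatives run.

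Prnd in rat sperm was carried by a few animals. Library 14 had 1498 counts (26.9 CPM), library 7 had 229 (4.19), library 13 had 142 (2.73), library 3 had 31 (0.521) and library 9 had 15 (0.336). The other 10 had at most 6 counts, and 5 of them had 0, with limits of 0.0690 to 0.162 CPM. The median of the 15 was 0.0495 CPM, below the median of male brain.

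The fitted difference from male brain was 3.46 ± 1.01 (adjusted p = 0.00277 by edgeR), and its direction depended on those libraries. It was 1.42 without library 14 (adjusted p = 0.0909 by edgeR) and -1.82 without libraries 3, 7, 13 and 14 (adjusted p = 0.00120 by edgeR). With the animal as a block it was -1.07 (adjusted p = 0.341 by edgeR), and with quality weights in limma's voom -1.87 (adjusted p = 0.000927). Against ovary, sperm showed no called difference, with ovary minus sperm at -1.50 ± 1.01 (adjusted p = 0.185 by edgeR) and 3.65 without the same 4 libraries (adjusted p = 1.12e-05 by edgeR).

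Across the 15 rat sperm libraries, Prnd rose with the level of the late spermatid and sperm list (PRM1, PRM2, TNP1, TNP2, ODF1, ODF2, AKAP4, CABYR, SPATA18, ACRV1, SMCP and GAPDHS). All 12 genes were detected, and the list averaged 3.03 to 10.64 as log2(CPM + 1), with libraries 14, 7, 3 and 13 at 10.64, 9.99, 8.84 and 7.41. Pearson's r was 0.808 (permutation p = 0.00023, adjusted 0.00276 over 12 relations of members to marker lists) and Spearman's rho was 0.822 (adjusted permutation p = 0.00516). Without the 2 libraries farthest from the median list level r was 0.603 (adjusted permutation p = 0.136) and rho 0.723 (adjusted 0.0291), so r, unlike rho, passed only with those 2 included. Without libraries 7, 16 and 17 r was 0.790 (adjusted permutation p = 0.0311, n = 12). Prnp and Sprn had r of -0.331 and 0.0640 with the same list (adjusted permutation p = 0.275 and 0.886). Libraries 14 and 7 were also highest in the neuron list, at 0.94 and 0.73, and in the theca and luteal list named below, at 1.26 and 1.61. In the epididymis and vas deferens list library 7 was lowest, at 1.81, and library 14 had 3.41. Libraries 14, 3 and 13 had the most genes with counts, at 30592, 29526 and 28412, and library 7 had 25872. The part of this in the relation was not tested.

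In the 14 ovaries Sprn fell as the theca and luteal list (STAR, CYP11A1, CYP17A1, LHCGR and PTGFR) rose. All 5 genes were detected, at a list level of 6.73 to 9.75. Pearson's r was -0.708 (permutation p = 0.0052, adjusted 0.0311) and Spearman's rho -0.705 (adjusted permutation p = 0.0262). Without the 2 farthest ovaries r was -0.632 (adjusted permutation p = 0.136) and rho -0.594 (adjusted 0.139), so both passed only with those 2 included. For Prnd and the same list r was 0.563 (adjusted permutation p = 0.137) and rho 0.604 (adjusted 0.0746), and without the 2 farthest ovaries rho was 0.832 (adjusted 0.0185). With the granulosa list Sprn had the same direction as with the theca and luteal list and did not pass. There r was -0.540 (adjusted permutation p = 0.137) and rho -0.578 (adjusted 0.0792). Of the other relations, that of Sprn in sperm with the epididymis and vas deferens list passed by rho (-0.708, adjusted permutation p = 0.0227) and not by r (-0.324, adjusted 0.275), and rho lost its call without libraries 7, 16 and 17 (adjusted 0.0925). The rat with the most Prnd in ovary, number 24 at 2.36 CPM, had the least Sprn, 3.32 CPM.

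**Figure D4:**
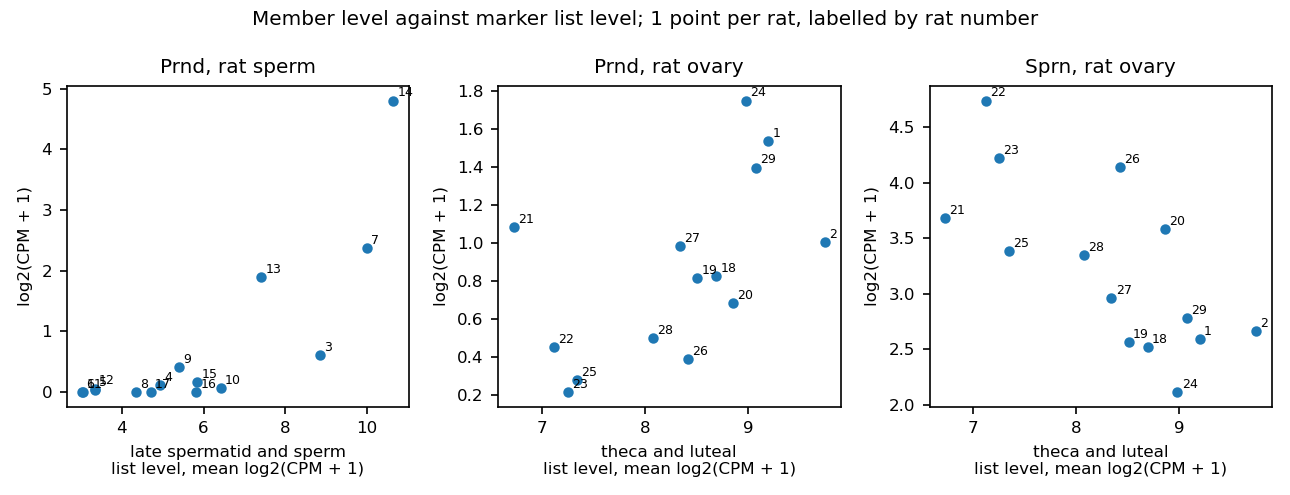
Level of Prnd or Sprn, log2(CPM + 1), against the mean level of a marker list in the same library, 1 point per rat with its number. Rats 14, 7 and 13 carry most of the Prnd in sperm, and Sprn in ovary is lower where the theca and luteal list is higher (r = -0.708).

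No member was called between female and male rat brain. The differences, female minus male, were 0.07 ± 0.05 for Prnp, -0.02 ± 0.21 for Prnd and 0.19 ± 0.09 for Sprn (adjusted p = 0.663, 0.989 and 0.504 by edgeR). In this comparison 0.180% of genes were called, and 0 genes of any of the 6 lists. The unadjusted p of Sprn was 0.0496 by edgeR.

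The balance of the 2 neighbouring genes was given as PRND counts per 1000 PRNP counts, which is comparable between libraries of the same species. It is not a ratio of transcript amounts, since the transcripts differ in length, and it was not compared between sheep and rat. It was 1.24 ± 0.465 in sheep brain (SD over libraries of 5 sheep, n = 50). Over separate animals it was 0.327 ± 0.0952 in male rat brain (SD, n = 15) and 0.295 ± 0.156 in female rat brain (SD, n = 14). Rat ovary was higher, at 3.53 ± 2.90 (SD, n = 14), from 0.782 to 10.9. In sperm it was 11.2 in sheep 688, and it ran from 0 to 905 over the rat libraries with a median of 1.98.

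**Figure D5:**
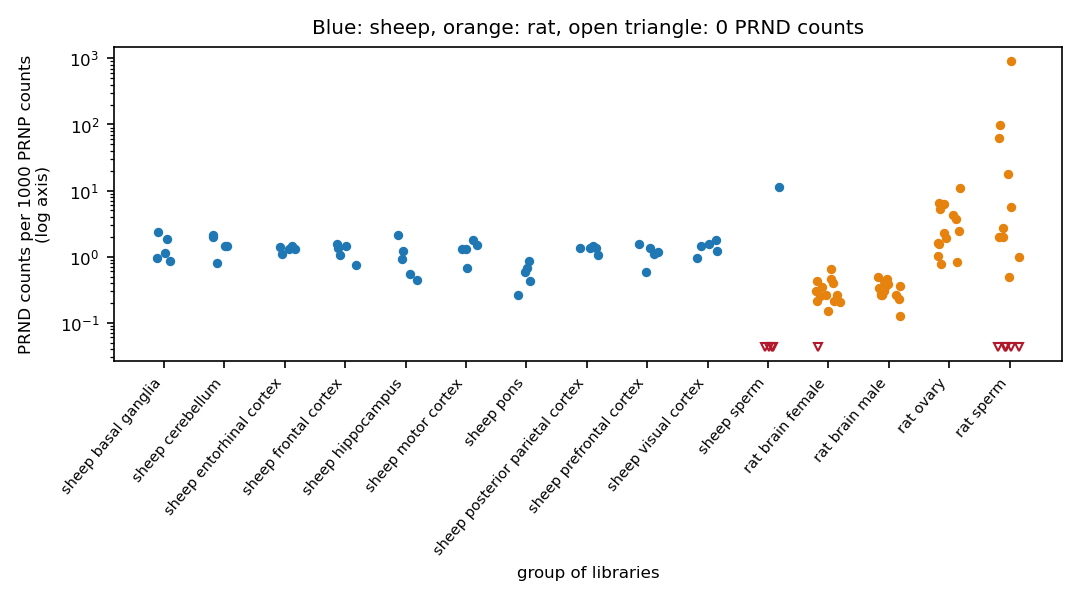
PRND counts per 1000 PRNP counts in each library (log axis), sheep in blue and rat in orange, with open triangles for libraries with 0 PRND counts. Sheep brain libraries lie between 0.260 and 2.35, and rat sperm reaches 905 in library 14.

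SPRN counts per 1000 PRNP counts were 31.8 ± 20.5 in sheep pons, 92.2 ± 13.1 in cerebellum, 190 ± 68.9 in posterior parietal cortex and 197 ± 54.3 in frontal cortex (SD, n = 5 each). The high value of posterior parietal cortex went with its low PRNP. Rat values were 86.7 ± 8.63 in male brain (SD, n = 15), 94.6 ± 18.4 in female brain and 38.9 ± 28.1 in ovary (SD, n = 14 each).

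The pathway lists in rat sperm, against male brain, were read against a median of -0.03 over all genes, with 7739 of 20480 called higher and 8029 lower (77.0% in all). Of the 14 GPI anchor genes 11 were higher and 3 lower (median 1.06). PGAP2, which remodels the anchor's lipid, was at 828 CPM against 19.4 (5.45 ± 0.21), and PGAP3, the enzyme acting beside it, at 99.7 against 7.79 (3.71 ± 0.19). With plain totals 8 were higher and 3 lower. Copper handling had 7 of 9 higher and 2 lower (median 1.28), with the copper importer SLC31A1 at 164 CPM against 24.8 (2.76 ± 0.16).

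Of the 11 binding partners in rat sperm 4 were higher and 7 lower (median -3.38; 2 and 7 with plain totals). NCAM1, a neural adhesion molecule, was at 1.36 CPM against 311 (-7.76 ± 0.50), and SORT1 at 653 against 334 (1.00 ± 0.14). The cleavage list had 2 of 5 higher and 2 lower, with ADAM9 at 640 CPM against 44.7 (3.87 ± 0.24). The ZIP list had 2 of 9 higher and 4 lower, with SLC39A7, which releases zinc into the cytosol, at 329 CPM against 68.2 (2.30 ± 0.19). The 7 neighbours had 2 higher and 3 lower: SYCE1 was at 14.5 CPM against 0.330 (5.56 ± 0.67), and RASSF2, which lies beyond Prnd on rat chromosome 3, at 5.63 against 48.9 (-3.06 ± 0.26).

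In ovary against female brain the median over all genes was 0.02, with 9307 of 20801 called higher and 9124 lower (88.6% in all). GPI anchor genes were higher in 10 of 14 and lower in 3 (median 0.57), cleavage genes higher in 4 of 5 and lower in 1 (median 1.61) and ZIP genes higher in 7 of 9 and lower in 2 (median 0.84). ADAM17, a sheddase, was at 57.6 CPM against 17.9 (1.69 ± 0.07), and SLC39A8 at 41.4 against 6.47 (2.69 ± 0.14). Copper handling had 6 of 9 higher and 2 lower, with ATP7A, a copper export pump, at 27.9 CPM against 5.64 (2.32 ± 0.08).

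The 11 binding partners in ovary were split, with 4 higher and 7 lower (median -0.82). RPSA, the laminin receptor, was at 993 CPM against 370 (1.44 ± 0.10) and CAV1 at 147 against 25.1 (2.56 ± 0.17). DPP6 was at 1.51 against 125 (-6.36 ± 0.21). The neighbours divided evenly, with 3 of 6 higher and 3 lower.

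The sperm against brain difference of each species was compared in 1 fit, with the 10 regions of each sheep summed, where 65.1% of 15172 shared genes were called and the median of all genes was -0.69. PRNP was lower in sperm than in brain in both species, and its fall was smaller in sheep. The sheep difference minus the rat difference was 2.26 ± 0.48 (log2 ± SE, adjusted p = 8.34e-05 by edgeR). Without sheep 688 this was 1.07 ± 0.33 (adjusted p = 0.00494 by edgeR). PRND was at -2.52 ± 1.87 (adjusted p = 0.237 by edgeR), and at -12.02 without sheep 688 (adjusted p = 0.0172 by edgeR). SPRN was at -8.37 ± 3.86 (adjusted p = 0.0558 by edgeR), and the same fit without rat sperm libraries 16 and 17 gave -7.01 (adjusted p = 0.0260 by edgeR). Since SPRN had 0 counts in all 5 sheep sperm libraries, the size of its difference rests on how a fit treats counts of 0. It is not a measured fold, and voom turned its direction.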

How the data were processed

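Per the labels and the submitters' processing notes, stranded mRNA libraries were read from both ends for 150 bases, trimmed with Trimmomatic 0.39, aligned with STAR 2.7.5a to GRCr8 or ARS-UI_Ramb_v3.0, and counted with Rsubread 2.20.0. The authors deposited unnormalized read counts, with a gene in each row and a library in each column. The sources used here do not give the strand or multi-mapping settings. Sheep genes carry no positions here.

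Counts were tested by quasi-likelihood in edgeR 4.0.16, run in R 4.3.3, after filterByExpr, with TMM factors, a prior count of 0.125 and Benjamini-Hochberg adjustment over all genes tested. The mean of 10 regions was the reference for sheep sperm, and the other 9 regions for each region. Rat fits held the 2 groups compared. Levels used TMM factors over all libraries of a species. SE is the absolute log2 fold change over the square root of F, from a dispersion shared over groups. It may be too small where libraries vary as in sperm. Correlations used 100000 permutations. Limits from 0 counts took 3 counts and cover counting error only.

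Animals are the same across tissues, per the labels. The deviations of same-numbered libraries correlated with a median r of 0.0456 between rat sperm and brain, 0.0246 between ovary and brain, 0.0351 between sheep sperm and brain and 0.142 between sheep regions. Simulated data were fitted only for pons against the other regions and for rat ovary against female brain, and for no sperm comparison. The members, gene lists, tests and the rule for named genes were chosen with earlier results of these data known. In each comparison the rule admits, per list and direction, the 2 called genes with the largest change and at least 10 CPM in the higher group, and the 5 genes most like each member over regions. One gene that the rule admits and one marker gene are not reported here. The 4 myelin genes were chosen after their values were seen.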

Additional observations from a re-analysis of the deposited data

Results flagged for a closer look

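In groups of 4 to 10 libraries, the highest or lowest value was set against Dixon's criterion, which chance meets in about 1 in 20 groups. Of 32 groups tested, 4 met it. Sheep 688 had 296 CPM of PRNP in sperm, where the next highest was 65.5, and 3.31 CPM of PRND in sperm, where the other 4 sheep had 0. Sheep 687 had 90.2 CPM of SPRN in visual cortex, where the next highest was 47.2. Sheep 690 had 0.227 CPM of PRND in frontal cortex, where the next lowest was 0.447. The fall of PRNP from brain to sperm was smaller in sheep than in rat, by 2.26 on the log2 scale (adjusted p = 8.34e-05, edgeR's quasi-likelihood test). Species and preparation cannot be told apart in this difference.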

How the results depend on the processing

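The alternatives were other scaling factors, no low-count filter, DESeq2, voom with quality weights, a 2-fold threshold, removal of rRNA-like entries, the animal as a block, summed regions and leaving out libraries. Those without brain libraries 1 or 4, without rat sperm 14, without 3, 7, 13 and 14, and without 7, 16 and 17 were chosen after seeing the data. Of the results for members, 623 kept direction and call, 40 turned direction, 9 gained a call and 22 lost one. Where a result changed, the cause was not tested. PRND in sheep sperm (log2 1.12) became -1.17 with plain totals, 0.95 without the filter, -1.36 with voom, 0.83 with summed regions, 0.76 with the block, and -7.39 to 1.51 without single sheep. The -7.39 here and the -12.02 below came without sheep 688, where no sheep sperm count of PRND remained. SPRN had no count in any sheep sperm library, so its species differences below rest on how a fit treats empty counts. PRND in rat sperm (3.46) became 1.29 by DESeq2, -1.87 by voom, -1.07 with the replicate block, 1.42 without library 14 and -1.82 without 3, 7, 13 and 14; ovary minus sperm (-1.50) became 0.37, 3.49, 0.40 and 3.65 under the same settings except the block. The block also moved PRND in hippocampus to -0.066 and changed no other call or direction. The 2-fold threshold ended the calls of SPRN in cerebellum (-0.81), frontal (0.88) and motor cortex (0.75) and of PRNP in posterior parietal cortex (-0.57; -0.57 with an adjusted edgeR p of 0.0503 without the filter). Without single sheep the last ranged from -0.61 to -0.54, SPRN in frontal cortex from 0.75 to 0.96 and in motor cortex from 0.68 to 0.80. Small differences changed sign: PRNP in basal ganglia (0.00) was -0.23 with plain totals, -0.018 without the filter, -0.0085 without rRNA-like entries and -0.071 to 0.079 without single sheep; PRNP in pons -0.010, -0.00035 and -0.14 to 0.10 for plain totals, no filter and single sheep; PRNP in entorhinal cortex -0.070 by voom and -0.050 to 0.15; PRND in hippocampus -0.14 by voom and -0.25 to 0.22; SPRN in posterior parietal cortex -0.071 with plain totals and -0.059 to 0.23. Without single sheep PRND in cerebellum ranged from -0.023 to 0.32, PRNP in prefrontal cortex from -0.22 to 0.045 and PRND there from -0.35 to 0.0030. SPRN in prefrontal cortex was called by voom (0.50). The edgeR adjusted p for any region difference in PRNP was 0.0389 with plain totals, 0.0126 by voom and 0.0179 to 0.262 without single sheep; for PRND it was 0.0217 to 0.116. Female minus male differences with plain totals were -0.15 for Prnp and -0.019 for Sprn. The species difference of PRND was 0.55 by voom and -12.02 to -2.14 without single sheep, and that of SPRN -8.16 with plain totals, -5.07 by DESeq2, 0.65 by voom, -7.01 without rat sperm 16 and 17 and -6.69 without 7, 16 and 17. DESeq2 gave no adjusted p for the species difference of PRNP. Levels with plain totals were 339 CPM for PRNP and 31.0 for SPRN in cerebellum, 387 for PRNP and 0.497 for PRND in entorhinal cortex, 79.5 for SPRN in frontal cortex, 819 and 71.6 for Prnp and Sprn in male rat brain and 318 for Prnp in ovary. The sheep sperm mean of PRNP was 87.1 CPM with TMM scaling and 20.8 with plain totals. Without the 2 farthest libraries r was 0.603 for Prnd and the spermatid list, -0.632 for Sprn and the theca list and -0.0167 for Prnd and the granulosa list (0.0279 with all); Sprn and the spermatid list stood at -0.134 without rat sperm 7, 16 and 17. Counts of called genes with the 2-fold threshold were 2176 of 5830 in basal ganglia, 6093 of 12839 in cerebellum, 585 of 1660 in frontal cortex, 976 of 2320 in hippocampus, 347 of 750 in motor cortex, 3950 of 10211 in pons, 562 of 2202 in posterior parietal cortex, 520 of 1334 in prefrontal cortex, 448 of 1195 in visual cortex, 11832 of 18431 in ovary against brain and 12 of 37 between sexes. Voom called 1646 in entorhinal cortex (710 in edgeR), 4739 in frontal, 1594 in motor, 2370 in prefrontal and 1914 in visual cortex and 290 between sexes; plain totals gave 1220 in entorhinal cortex and 18 between sexes. Between sexes DESeq2 called 163, 1 fit over 58 libraries 14, and the fit without brain libraries 1 and 4 74. Without the filter 25339 genes were called in rat sperm against brain (15768 with it) and 22884 in ovary against sperm (13979). Without single sheep the counts ran from 349 to 1093 in entorhinal, 631 to 2287 in frontal, 343 to 1018 in motor, 871 to 1998 in posterior parietal, 651 to 1067 in prefrontal and 489 to 1222 in visual cortex and 1123 to 2423 in hippocampus. Depth limits PRND most, at 6 to 48 counts per sheep brain library.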

Other observations

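The sheep table also lists PRNT, a gene of the prion locus named for testis expression in primates, with 0 counts in all 55 sheep libraries.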
